A study of Mus musculus with 203 samples.

Results

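The 10 genes described here encode proteins of heart muscle cells: Nppa, Myl4, Myl7, Myh6, Mybpc3, Tnnt2, Actc1, Sln, Ryr2 and Csrp3. They were chosen by name, as a marker set for the cardiac muscle that sheathes pulmonary veins, out of the 43346 genes in a table of bulk RNA-seq counts from mouse lung. All 10 passed the filter on low counts. The rule used no measured value, although the list was drawn up with earlier results of these data known.

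In rodents the striated muscle of the left atrium continues outwards along the pulmonary veins and forms a sleeve of cardiomyocytes around them inside the lung. These cells beat, carry calcium-handling proteins of the heart and use atrial forms of the contractile proteins. In a lung that has been dissected into pieces, their transcripts go wherever the larger veins go. Because the libraries are bulk samples, fewer heart muscle cells in a piece and less RNA per heart muscle cell cannot be told apart, and transcripts of vein muscle cannot be told apart from those of attached atrium.

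The study compared the conducting airways with the parenchyma of the lung in models of allergic airway disease, smoke exposure and their overlap. All mice were female Balb/C, given in the labels as 18 to 20 weeks old, and airways and parenchyma were separated by blunt dissection. After 3 weeks of intranasal house dust mite extract (HDM) or its vehicle, phosphate buffered saline (PBS), there were 11 airway and 12 parenchyma libraries from PBS mice and 10 of each tissue from HDM mice. After 11 weeks there were 10 libraries of each tissue for each of 8 exposures.

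At 11 weeks PBS or HDM was combined with normal air (AIR) or cigarette smoke (CS), in mice without or with dexamethasone (DEX), an anti-inflammatory glucocorticoid, in the last week. The labels write these groups as PBS.AIR, PBS.AIR.DEX, PBS.CS, PBS.CS.DEX, HDM.AIR, HDM.AIR.DEX, HDM.CS and HDM.CS.DEX. Each library is named here by the code in its label, such as X63. The labels do not say which airway and parenchyma libraries came from 1 mouse, nor whether a library holds 1 animal, so p-values measure the spread between these libraries.

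Airways gave 51 PBS and 50 HDM libraries and parenchyma 52 PBS and 50 HDM libraries, with total counts from 13003154 to 40240733. Levels are CPM, counts scaled to a common library size by TMM, and a difference was called at a limma adjusted p under 0.05 with an absolute log2 fold change of at least 1. The library X109, labelled airway HDM.AIR, stood apart, with Krt5, a basal cell keratin, at 0.391 CPM, inside the parenchyma range (up to 1.61 CPM) and below the 8.07 CPM or more of the other HDM.AIR airway libraries. The HDM.AIR parenchyma library X70 carried 3813 CPM of a list of 10 skeletal muscle genes, against at most 143.3 CPM in any other parenchyma library. Where leaving them out moved a count or a median, the value without them is given too.

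Positions are those of the mm10 assembly. Nppa (ENSMUSG00000041616.9) encodes atrial natriuretic peptide, the hormone that atrial muscle releases when stretched, at chr4:148000722-148002079 on the plus strand. Myl4 (ENSMUSG00000061086.8, chr11:104550663-104595753, plus strand) and Myl7 (ENSMUSG00000020469.8, chr11:5896637-5898782, minus strand) encode the essential and the regulatory light chain of atrial myosin. Myh6 (ENSMUSG00000040752.11, chr14:54941921-54966927, minus strand) encodes the alpha heavy chain of cardiac myosin. Mybpc3 (ENSMUSG00000002100.11, chr2:91118144-91136516, plus strand) encodes cardiac myosin-binding protein C, which holds and regulates the thick filament.

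Of the thin filament, Tnnt2 (ENSMUSG00000026414.9, chr1:135836354-135852260, plus strand) encodes cardiac troponin T, and Actc1 (ENSMUSG00000068614.7, chr2:114047282-114053548, minus strand) encodes cardiac alpha-actin. Of calcium handling, Sln (ENSMUSG00000042045.5, chr9:53850164-53854560, plus strand) encodes sarcolipin, an inhibitor of the calcium pump of the sarcoplasmic reticulum. Ryr2 (ENSMUSG00000021313.11, chr13:11553102-12106945, minus strand) encodes the calcium release channel. Csrp3 (ENSMUSG00000030470.10, chr7:48830398-48848033, minus strand) encodes the muscle LIM protein of the Z-disc. All are protein-coding genes.

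The DNA before the start of transcription is shown for 4 genes that differed from each other in the parenchyma although they varied together in the airways. Each window holds the 250 bases before a RefSeq start (GRCm38.p6, the mm10 assembly), written 5′ to 3′ on the gene's own strand. Capitals mark matches, on either strand, to 6 motifs of heart and muscle genes: GATAA of GATA factors, AAGTG of NKX2-5, CATTCC of TEAD factors, TATAA, and the CArG box of SRF and the site of MEF2 by their usual consensus.
Nppa, chr4:148000472-148000721, plus strand: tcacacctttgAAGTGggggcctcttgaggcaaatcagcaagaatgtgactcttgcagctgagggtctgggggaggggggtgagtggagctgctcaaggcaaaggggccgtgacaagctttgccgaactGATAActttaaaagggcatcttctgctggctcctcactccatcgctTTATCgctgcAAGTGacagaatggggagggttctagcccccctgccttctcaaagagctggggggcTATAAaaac
Myl7, chr11:5898783-5899032, minus strand: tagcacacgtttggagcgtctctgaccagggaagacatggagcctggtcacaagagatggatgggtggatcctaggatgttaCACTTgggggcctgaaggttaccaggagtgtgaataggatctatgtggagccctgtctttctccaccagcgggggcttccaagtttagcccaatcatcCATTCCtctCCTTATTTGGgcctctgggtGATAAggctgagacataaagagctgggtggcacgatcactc
Actc1, chr2:114052876-114053125, minus strand: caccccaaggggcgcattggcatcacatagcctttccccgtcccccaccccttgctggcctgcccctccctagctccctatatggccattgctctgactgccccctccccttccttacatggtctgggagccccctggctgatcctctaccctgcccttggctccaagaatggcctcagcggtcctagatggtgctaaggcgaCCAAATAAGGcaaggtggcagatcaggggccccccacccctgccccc
Mybpc3, chr2:91117894-91118143, plus strand: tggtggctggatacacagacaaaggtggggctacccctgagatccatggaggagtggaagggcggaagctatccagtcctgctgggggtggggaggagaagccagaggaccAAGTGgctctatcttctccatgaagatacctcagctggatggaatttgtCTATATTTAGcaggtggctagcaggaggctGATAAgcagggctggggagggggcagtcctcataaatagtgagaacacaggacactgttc

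The Nppa window held GATAA on each strand, AAGTG at 2 places and TATAA. Myl7 held a CArG box 61 to 52 bases before the start, Actc1 one 47 to 38 bases before it, and Mybpc3 a MEF2 site 90 to 81 bases before it. There were 11 windows for the 9 genes that had one. The CArG box occurred in 2 of these 11 and in 1.47% of all 32851 RefSeq promoter windows of that length. The MEF2 site occurred in 1 of 11 and in 2.92%. GATAA occurred in 4 of the 11 windows against 22.6% of all windows, AAGTG in 6 against 40.7%, CATTCC in 3 against 12.6% and TATAA in 2 against 22.8%. A match is a run of letters and not a bound site. Sln was not among the windows.

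All 10 genes were far higher in airway than in parenchyma libraries. Pooled over exposures, the median in airways was 118.1 CPM for Tnnt2, 83.3 CPM for Myl4, 74.3 CPM for Myl7 and 61.1 CPM for Actc1, against 2.32, 4.33, 1.00 and 5.09 CPM in parenchyma. For each of these 4 genes, 97 airway libraries, all but 4, lay above every parenchyma library. Myh6 had medians of 175.7 CPM in airways and 19.0 CPM in parenchyma, and Ryr2 of 19.6 and 3.24 CPM. Both were therefore clearly read in parenchyma too.

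The hormone gene and the small regulators were close to absent from parenchyma. Nppa had a median of 29.8 CPM in airways and was at 0 in 68 parenchyma libraries, with 3 counts or fewer, a level that a count of 0 cannot be told apart from, in 93 of them. Its highest parenchyma value was 2.42 CPM, in the PBS.CS library X173. Sln had medians of 17.9 and 0.130 CPM and Csrp3 of 16.3 and 0.201 CPM. The parenchyma library X70, with its skeletal muscle transcripts, held the highest value of both, 2.85 CPM of Sln and 19.6 CPM of Csrp3, so that only 45 airway libraries lay above every parenchyma library for Csrp3. Mybpc3 was low in both, with medians of 7.93 and 0.881 CPM.

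In PBS mice at 3 weeks all 10 genes were called higher in airways, where 10.0% of the 17377 genes tested were. The log2 difference ran from 3.11 (SE 0.45) for Ryr2 to 6.71 (SE 1.29) for Sln, leaving out Nppa, whose value depends on libraries at 0. Myl4 differed by 4.30 (SE 0.50, limma adjusted p = 4.36e-09). In HDM mice at 3 weeks 8 genes were called higher in airways, against 8.00% of genes, and Mybpc3 (0.90, SE 0.52, limma adjusted p = 0.173) and Nppa (limma adjusted p = 0.102) were not. Over the 8 exposures at 11 weeks all 10 were called, against 9.79% of genes, with Tnnt2 at 5.69 (SE 0.21, limma adjusted p = 3.29e-56) and Ryr2 lowest at 2.78 (SE 0.14).

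Airway and parenchyma groups did not overlap for any of the 10 genes in 8 of the 10 exposures. The exceptions were HDM at 3 weeks, where 1 gene, Ryr2, was without overlap, and HDM.AIR at 11 weeks, where 3 genes were, or 7 without X109 and 9 without X109 and X70. Together, 84 of the 100 combinations of gene and exposure were without overlap, against 4.79% over all genes. The plot of levels in all libraries shows both the gap between the tissues and the depth of the fall in HDM airways.

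**Figure D1:**
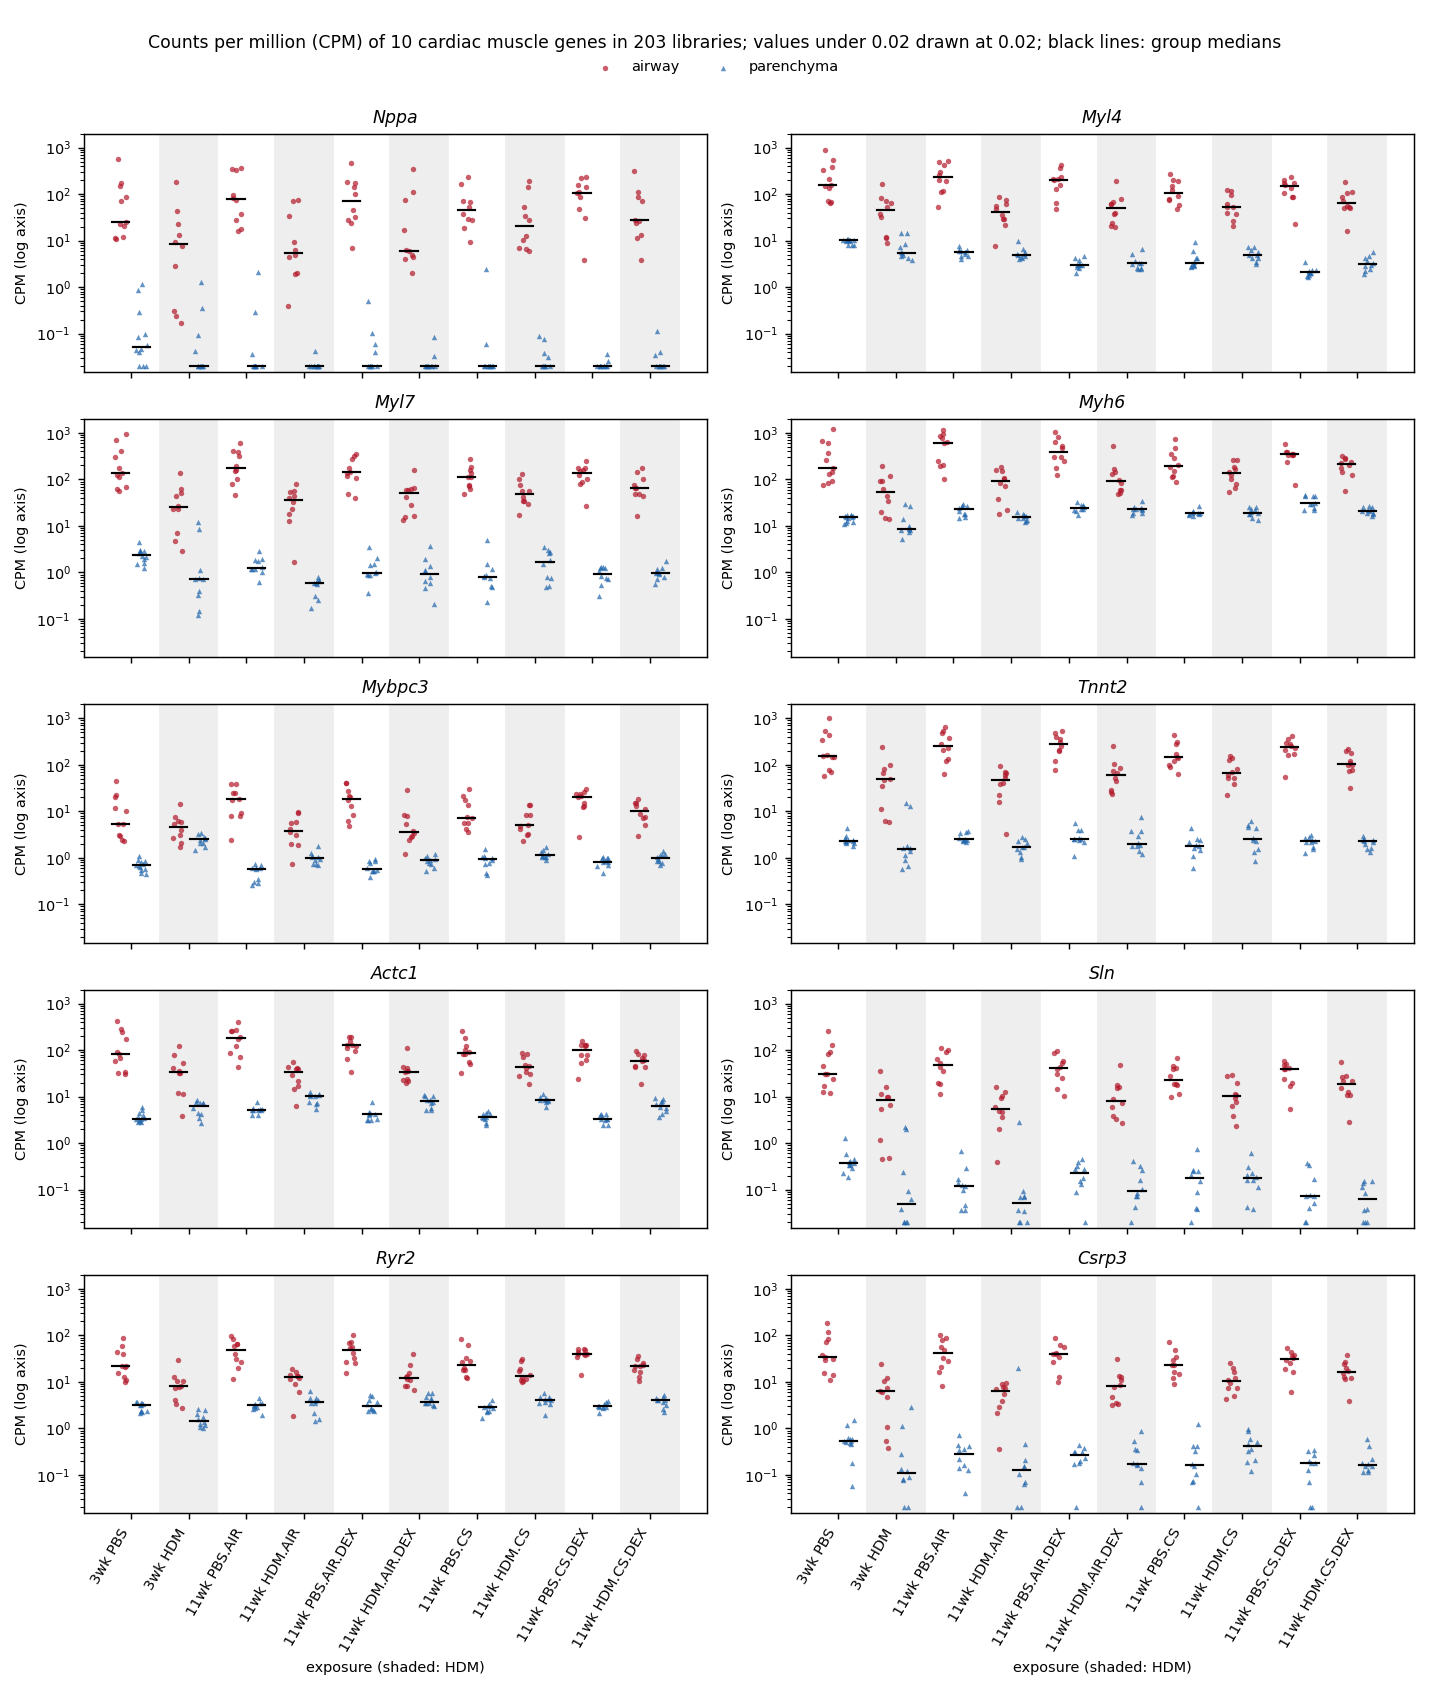
Level of each of the 10 genes in every library, in CPM on a log axis, with 1 point per library, airway and parenchyma libraries in different colours and markers, black lines at group medians and HDM exposures shaded. Airway points sit above parenchyma points in nearly every exposure, and the HDM airway groups at 3 weeks and under air reach furthest down, to 0.169 CPM for Nppa.

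Levels were compared per kilobase of the spliced principal coding transcript, which allows genes to be set beside each other. By this length the atrial light chains led in 3-week PBS airways. The order depends on the length used. The union of all exons, 4.64 kb for Myl4 and 7.75 kb for Tnnt2, would place these 2 genes lower. The median level was 232 CPM per kb for Myl7, 165.7 for Myl4 and 126.1 for Tnnt2, followed by Actc1 at 56.2, Csrp3 at 38.01, Nppa at 28.7, Myh6 at 28.5 and Sln at 22.9. Ryr2 at 1.31 and Mybpc3 at 1.30 CPM per kb were lowest. Neighbours in this order differed by less than their spread, since the SD of each gene in that group was close to or above its mean, as for Myl7 with 477 ± 496 CPM per kb (SD, n = 11).

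Ventricular genes gave a mixed check of the label. Myl2, the ventricular regulatory light chain, had a median of 0.0606 CPM per kb in the same group and Irx4, a ventricular transcription factor, was at 0 there, while Myl3, the ventricular essential light chain, reached 12.9 ± 12.4 CPM per kb (SD, n = 11). Per kilobase, both atrial light chains thus lay far above the ventricular regulatory light chain. Myl3, given here as a mean and not a median, was clearly read, so the ventricular genes did not all go the same way. Myh7, the beta heavy chain next to Myh6, was read at 13.7 ± 4.81 CPM per kb in airways and 8.30 ± 1.21 in parenchyma (SD, n = 11 and 12) and its deviations between airway libraries did not follow those of the 10 genes (r = -0.03 with their mean). It was therefore not used as a sign of heart muscle.

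HDM for 3 weeks lowered 9 of the 10 genes in the airways, where 11.8% of all genes tested were called lower. The median log2 fold change of the 10 genes was -2.41, against -0.07 over all genes. The falls were steepest for the Z-disc gene Csrp3, the hormone gene Nppa, the pump inhibitor Sln and the light chain Myl7, each over 8-fold, and the change was smallest for Mybpc3, which was not called.

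Nppa ran from 11.1 through a median of 24.8 to 560 CPM in the 11 PBS libraries and from 0.169 through 8.56 to 179.5 CPM in the 10 HDM libraries. The groups overlapped, with 6 HDM libraries below every PBS library and 8 below the PBS median. The fitted fall was 9.87-fold (log2 fold change -3.30, SE 0.84, limma adjusted p = 5.65e-04).

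Among the light chains, Myl4 went from 63.6, 156.2 and 892 CPM (lowest, median and highest PBS library) to 8.97, 45.5 and 161.6 CPM with HDM. Myl7 went from 56.7, 137.01 and 936 CPM to 2.85, 25.03 and 134.4 CPM. For Myl7 every HDM library was below the PBS median and 8 were below every PBS library, and for Myl4 9 and 7 were. Myl7 fell 8.49-fold (-3.09, SE 0.49, limma adjusted p = 3.68e-07) and Myl4 5.28-fold (-2.40, SE 0.40, limma adjusted p = 1.26e-06).

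The thick filament genes differed from each other. Myh6 ran from 77.2 through 174.1 to 1206 CPM with PBS and from 14.1 through 52.96 to 197.9 CPM with HDM, and fell 4.8-fold (-2.26, SE 0.41, limma adjusted p = 5.60e-06). Mybpc3 ran from 2.31 through 5.43 to 44.1 CPM with PBS and from 1.74 through 4.62 to 14.4 CPM with HDM. Its groups overlapped almost wholly, with 6 HDM libraries below the PBS median, and its change of -0.86 (SE 0.40) had a limma adjusted p of 0.0518. Without X63, X201 or X203 it passed, with values between -0.58 and -1.04 over all single libraries left out.

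Thin filament genes fell too. Tnnt2 went from 57.99, 151.4 and 990 CPM to 5.88, 48.96 and 238 CPM, a 5.34-fold fall (-2.42, SE 0.47, limma adjusted p = 1.79e-05). Actc1 went from 30.3, 82.8 and 428 CPM to 3.79, 33.97 and 119.7 CPM, a 3.37-fold fall (-1.75, SE 0.42, limma adjusted p = 2.67e-04). For both, 9 of 10 HDM libraries lay below the PBS median, yet for Actc1 only 3 lay below every PBS library.

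Of the calcium genes, Sln ran from 11.9 through 30.1 to 256 CPM with PBS and from 0.452 through 8.24 to 35.6 CPM with HDM, and fell 9.18-fold (-3.20, SE 0.61, limma adjusted p = 1.04e-05). Ryr2 ran from 10.1 through 22.05 to 86.5 CPM and from 2.77 through 8.04 to 29.98 CPM, and fell 3.34-fold (-1.74, SE 0.34, limma adjusted p = 1.63e-05). Csrp3 of the Z-disc went from 10.7, 34.2 and 187.6 CPM to 0.383, 6.24 and 24.8 CPM. Every HDM library was below the Csrp3 PBS median and 8 were below every PBS library, and it fell 10.5-fold (-3.39, SE 0.58, limma adjusted p = 1.61e-06).

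No member was without overlap between PBS and HDM airways at 3 weeks, against 8.60% of all genes with every HDM library below every PBS library. Library codes run in sequence, and within stretches of 20 consecutive codes the mean of the 10 genes was lower with HDM in 8 of 9 stretches that held both groups. Csrp3 was lower in 9 of 9 and Mybpc3 in 5 of 9. Counts of called genes stayed at 9 or 10 whichever library was left out.

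In the parenchyma the same exposure gave no call lower among the 10 genes, where 2627 of the 17377 genes tested were called lower. The SE ran from 0.55 for Myh6 to 3.97 for Nppa, so a fall could have gone uncalled. Mybpc3 was the only gene called, and it rose, against 14.5% of genes called higher. It ran from 0.458 through 0.691 to 1.08 CPM in 12 PBS libraries and from 1.44 through 2.5 to 3.34 CPM in 10 HDM libraries. The groups did not overlap, as for 19.2% of all genes, and the rise was 3.24-fold (1.70, SE 0.73, limma adjusted p = 0.0323) on counts of 10 to 26 with PBS and 38 to 95 with HDM. Spi1, the macrophage transcription factor gene that lies 2388 bases from Mybpc3 on the same strand, went from a median of 19.4 to 129.03 CPM beside it, and its part in the Mybpc3 counts was not tested.

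Myl7 and Tnnt2 split the HDM parenchyma libraries, unlike Mybpc3. Myl7 ran from 1.23 through 2.40 to 4.54 CPM with PBS and from 0.124 through 0.721 to 12.2 CPM with HDM, with 8 HDM libraries below every PBS library and the other 2, X24 and X184, above every one. Tnnt2 had the same 8 to 2 split, from 1.77, 2.34 and 4.27 CPM with PBS to 0.569, 1.53 and 15.0 CPM with HDM. Ryr2 had 8 HDM libraries below every PBS library and none above the PBS median. Fits over both groups gave -1.54 (SE 1.42) for Myl7, -0.42 (SE 1.2) for Tnnt2 and -0.94 (SE 0.66, limma adjusted p = 0.190) for Ryr2.

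The 3-week values were fitted again without X24 and X184 and without X23 and X183, the HDM airway libraries with the lowest summed levels, an alternative chosen after the data had been seen. In airways 9 genes were still called lower, with a median of -1.87. In parenchyma Mybpc3 was still the only call, and the median of the 10 genes went from -0.75 to -1.03. In HDM mice 9 genes, Nppa among them, were then called higher in airways than in parenchyma. The libraries were picked by their levels of these genes, so smaller airway falls and a wider tissue gap were bound to follow.

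Whether the HDM effect differed between tissues was tested directly. At 3 weeks the difference, airway minus parenchyma, was below 0 for all 10 genes with a median of -1.79, but only Mybpc3 was called (-2.55, SE 0.83, limma adjusted p = 0.0287), against 1.66% of genes. Myh6 (-1.78, limma adjusted p = 0.0663), Actc1 (-2.32, 0.0749) and Myl4 (-1.79, 0.0933) came nearest. At 11 weeks, over the 4 settings, 8 genes were called, against 5.05% of genes, from Myh6 at -1.24 (SE 0.23) to Actc1 at -2.49 (SE 0.27, limma adjusted p = 1.53e-13), and Nppa (-1.57) and Sln (-1.44) were not. Without the 4 libraries just named, the 3-week median was -0.55, the values ran from -2.23 to 0.72 and no gene was called. Those libraries stood out by their levels of these same genes, so a smaller difference was bound to follow. The 11-week test was added after the data had been seen.

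At 11 weeks HDM again lowered the genes in airways. Averaged over the 4 settings of air, smoke and dexamethasone, all 10 were called lower, against 4.64% of the 18250 genes tested, and the median of all genes was -0.01. Nppa fell most (-1.92, SE 0.31), followed by Sln (-1.85, SE 0.20), Csrp3 (-1.80, SE 0.18) and Tnnt2 (-1.79, SE 0.16, limma adjusted p = 7.38e-20). Ryr2 (-1.34, SE 0.13) and Mybpc3 (-1.31, SE 0.18, limma adjusted p = 1.34e-10) fell least. Every gene was lower with HDM in all 10 stretches of 20 codes.

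In mice breathing air all 10 genes were called lower, against 8.54% of genes, with a median of -2.71. Csrp3 had 8.19, 40.97 and 101.8 CPM (lowest, median and highest) in PBS.AIR airways and 0.355, 6.36 and 9.51 CPM in HDM.AIR airways, a change of -3.08 (SE 0.44, limma adjusted p = 3.71e-10). Sln had 11.1, 47.5 and 110 CPM against 0.391, 5.44 and 16.0 CPM. Both had 8 HDM.AIR libraries below every PBS.AIR library.

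Myh6 had 101.3, 622 and 1152 CPM in PBS.AIR and 17.8, 92.5 and 186.4 CPM in HDM.AIR, a change of -2.59 (SE 0.32, limma adjusted p = 2.97e-12). Actc1 had 43.97, 183.3 and 405 CPM against 6.18, 33.8 and 54.3 CPM, with 9 of 10 HDM.AIR libraries below every PBS.AIR library, and fell 5.84-fold (-2.55, SE 0.28, limma adjusted p = 4.32e-15). Mybpc3, not called at 3 weeks, had 2.39, 18.3 and 39.3 CPM against 0.746, 3.83 and 9.44 CPM and fell (-1.93, SE 0.40, limma adjusted p = 1.20e-05).

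Nppa ran from 15.9 through 79.7 to 360.0 CPM in PBS.AIR and from 0.391 through 5.53 to 75.4 CPM in HDM.AIR, and fell (-3.37, SE 0.73, limma adjusted p = 2.75e-05). The light chain Myl7 had 45.9, 176.9 and 623 CPM against 1.67, 36.2 and 79.2 CPM, and Myl4 had 52.2, 231 and 524 CPM against 7.56, 41.05 and 87.6 CPM. Of the rest, Tnnt2 had 62.3, 259.5 and 657 CPM against 3.20, 46.6 and 92.5 CPM (-2.82, SE 0.33, limma adjusted p = 2.29e-13) and Ryr2 had 11.5, 48.7 and 94.9 CPM against 1.81, 12.6 and 19.2 CPM. Among these 5 genes the groups overlapped least for Nppa, Myl7 and Tnnt2, with 7 of 10 HDM.AIR libraries below every PBS.AIR library, and most for Ryr2, with 4.

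For each gene all 10 HDM.AIR libraries lay below the PBS.AIR median, yet none was without overlap, against 5.96% of all genes. X109 was the lowest HDM.AIR library for every member. Without it all 10 were still called, with a median of -2.39 and a range of -1.68 to -2.91. The HDM effects at 3 weeks and at 11 weeks in air were compared in a test added after the data had been seen, and no gene was called, against 6.07% of genes. The nearest, Mybpc3, differed by 1.15 (limma adjusted p = 0.124).

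**Figure D2:**
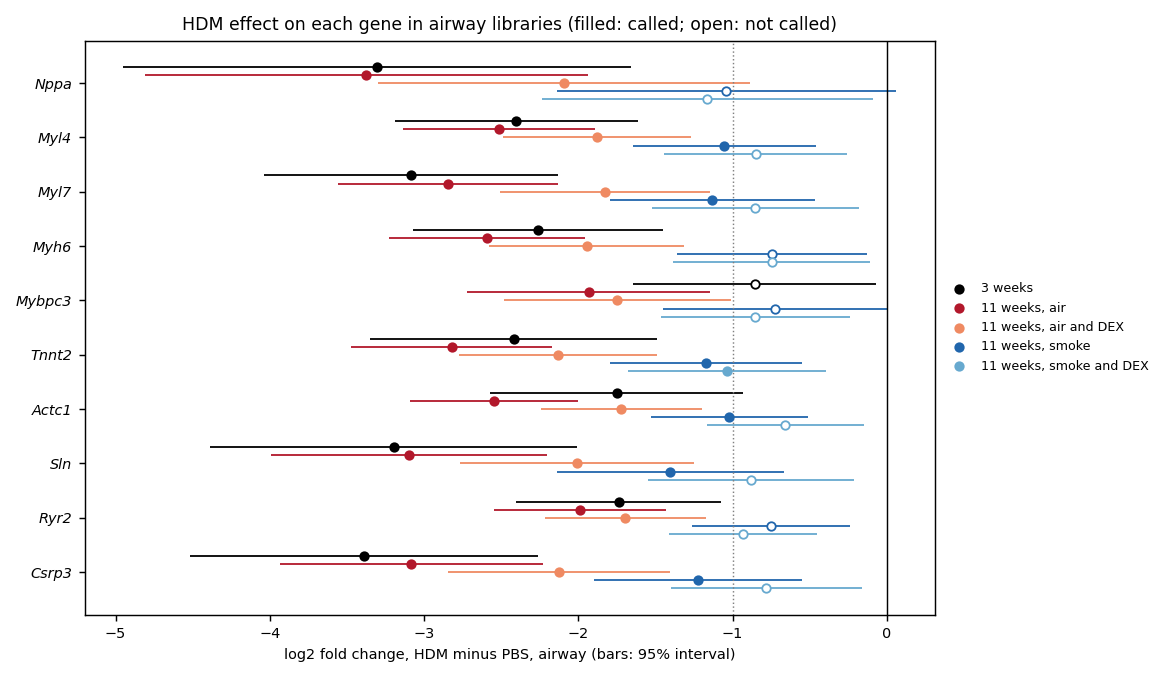
Fitted log2 fold change, HDM minus PBS, of each gene in airway libraries at 3 weeks and under the 4 settings at 11 weeks, with 95% intervals as bars, filled points for called changes and open points for the others. Points shift towards 0 from air to smoke, as for Myh6 at -2.59 under air and -0.75 under smoke.

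With dexamethasone in air, Csrp3 had 9.85, 40.3 and 88.7 CPM in PBS.AIR.DEX airways and 3.23, 8.17 and 31.2 CPM in HDM.AIR.DEX airways, and Nppa had 6.95, 72.3 and 458 CPM against 2.05, 6.04 and 343 CPM. The HDM.AIR.DEX library X131 was the highest of its group for every member and overlapped the PBS range in each. Dexamethasone beside HDM in air left all 10 genes called lower, against 6.24% of genes, from -1.70 (SE 0.27) for Ryr2 to -2.13 (SE 0.33) for Tnnt2. Under smoke the groups came closer, with Sln at 9.63, 23.3 and 67.7 CPM in PBS.CS and 2.29, 10.2 and 29.6 CPM in HDM.CS, and Actc1 at 32.8, 85.8 and 259 CPM against 18.8, 43.5 and 85.999 CPM. Here 6 were called, against 2.50% of genes: Sln (-1.40, SE 0.38), Csrp3 (-1.23, SE 0.34), Tnnt2 (-1.17, SE 0.32), Myl7 (-1.13, SE 0.34), Myl4 (-1.05, SE 0.30) and Actc1 (-1.02, SE 0.26). With sample quality weights 1 of these calls was left, and leaving out a stretch of codes left 3 to 6. Under smoke with dexamethasone only Tnnt2 was called (-1.04, SE 0.33, limma adjusted p = 0.00848), against 2.06% of genes, although without the lowest PBS.CS.DEX library, X195, 8 were.

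The HDM effect under smoke differed from that under air. The difference, in a test added after the data had been seen, was above 0 for all 10 genes and called for 8, against 1.67% of genes, with a median of 1.67 on the log2 scale. Csrp3 (1.86, SE 0.55, limma adjusted p = 0.0099) and Myh6 (1.84, SE 0.45, limma adjusted p = 0.00138) differed most among the called genes, and Nppa (2.33, limma adjusted p = 0.0607) and Mybpc3 (1.21, limma adjusted p = 0.107) did not pass. The count was 6 without X109, where the median was 1.29, and 9 without X195. It was 2 when the fourth or the sixth stretch of 20 codes was left out. In mice given dexamethasone the same difference was called for 0 genes, against 0.285% of genes, with a median of 1.05 and the lowest limma adjusted p at 0.0840, for Actc1.

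Levels under smoke show both sides of that difference. Tnnt2 had a median of 260 CPM in PBS.AIR and 144.4 CPM in PBS.CS airways, against 46.6 CPM in HDM.AIR and 65.9 CPM in HDM.CS. Myh6 had 622 and 191.6 CPM with PBS, against 92.5 and 134.7 CPM with HDM. Smoke under PBS gave values below 0 for all 10 genes, with Myh6 called (-1.05, SE 0.34, limma adjusted p = 0.0213), against 1.06% of genes, and Myl4 (-0.97), Actc1 (-0.81) and Ryr2 (-0.69) under an adjusted p of 0.05 but within the fold limit. Smoke under HDM gave values above 0 for all 10, with none called and Tnnt2 at 0.96 (limma adjusted p = 0.0220). Without X109 the median of these values went from 0.85 to 0.50, and Tnnt2 was at 0.59 (limma adjusted p = 0.172).

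Averaged over the other exposures, neither smoke nor dexamethasone moved the genes past the limits in airways. Smoke gave 0 calls, against 0.647% of genes, with values from -0.13 to 0.56. Dexamethasone gave 0 calls, against 3.30% of genes, though Tnnt2 (0.46, SE 0.16, limma adjusted p = 0.0158), Mybpc3 (0.51, SE 0.18, 0.0174) and Ryr2 (0.36, SE 0.13, 0.0223) were above 0 with an adjusted p under 0.05. Without X109 the median went from 0.38 to 0.29 with dexamethasone, where Ryr2 no longer passed (limma adjusted p = 0.0588) and Actc1 lay at -0.02, and from 0.13 to 0.03 with smoke. Over 12 single contrasts there were 28 calls of 120 in airways, all of them HDM effects or the smoke effect on Myh6, against 5.52% of genes.

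Parenchyma at 11 weeks gave 1 call. Actc1 rose with HDM over the 4 settings, 2.01-fold (1.00, SE 0.24, limma adjusted p = 1.06e-04), against 7.20% of genes. Its lowest, median and highest levels were 4.06, 5.19 and 7.47 CPM in PBS.AIR and 5.34, 10.3 and 12.5 CPM in HDM.AIR. Under smoke they were 2.47, 3.64 and 5.01 CPM and 6.04, 8.61 and 11.2 CPM, without overlap, as for 2.30% of all genes, though that contrast alone had a limma adjusted p of 0.0738.

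The Actc1 change sat at the fold limit, and the call was lost without X70, without X195 or without any of 6 stretches of codes. Acta2, smooth muscle actin, moved beside it, with group medians of 27.2 to 32.6 CPM with PBS and 48.05 to 63.3 CPM with HDM in the same tissue, and the part of reads shared between the 2 actins was not tested. Smoke and dexamethasone gave 0 calls among the 10 genes in parenchyma, against 1.62% and 3.58% of genes, and the 12 single contrasts gave 0 of 120, against 5.40%.

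The spread between airway libraries of 1 group was far wider for these genes than for most. The within-group SD of log2 CPM was 2.09 for Nppa, 1.31 for Sln, 1.21 for Myl7, 1.18 for Csrp3 and 1.14 for Tnnt2, and it was lowest for Ryr2 at 0.84. Their median was 1.11, against 0.283 over all genes, 0.735 for 8 smooth muscle genes and 0.436 for club and ciliated cell genes. Between 94.1% and 99.96% of genes had a lower value than each member. In parenchyma the median was 0.585, against 0.247 over all genes.

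In CPM this meant that the summed level of the 10 genes ran from 358 CPM in X203 to 5587 CPM in X81 among 3-week PBS airways, and from 45.98 CPM in X183 to 1136 CPM in X63 among HDM airways. In PBS.AIR it ran from 355 to 3879 CPM and in HDM.AIR from 40.1 CPM in X109 to 624 CPM. In parenchyma no library exceeded 85.9 CPM. The highest HDM library at 3 weeks therefore held more than most PBS libraries, and X81 alone moved the 3-week Mybpc3 estimate from -0.86 to -0.58.

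The spread was shared among the genes. Deviations of log2 CPM from group means, over all airway libraries, had a median Pearson r of 0.91 over the 45 pairs, from 0.79 for Nppa with Ryr2 to 0.99 for Myl7 with Tnnt2. Over all parenchyma libraries the median was 0.24, from -0.03 for Mybpc3 with Actc1 to 0.85 for Myl7 with Tnnt2. Points share a library's dissection, depth and scaling, so these values describe the libraries and carry no test. Tnnt2 followed the mean of the other 9 genes most closely in airways (0.98) and Nppa least (0.90).

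**Figure D3:**
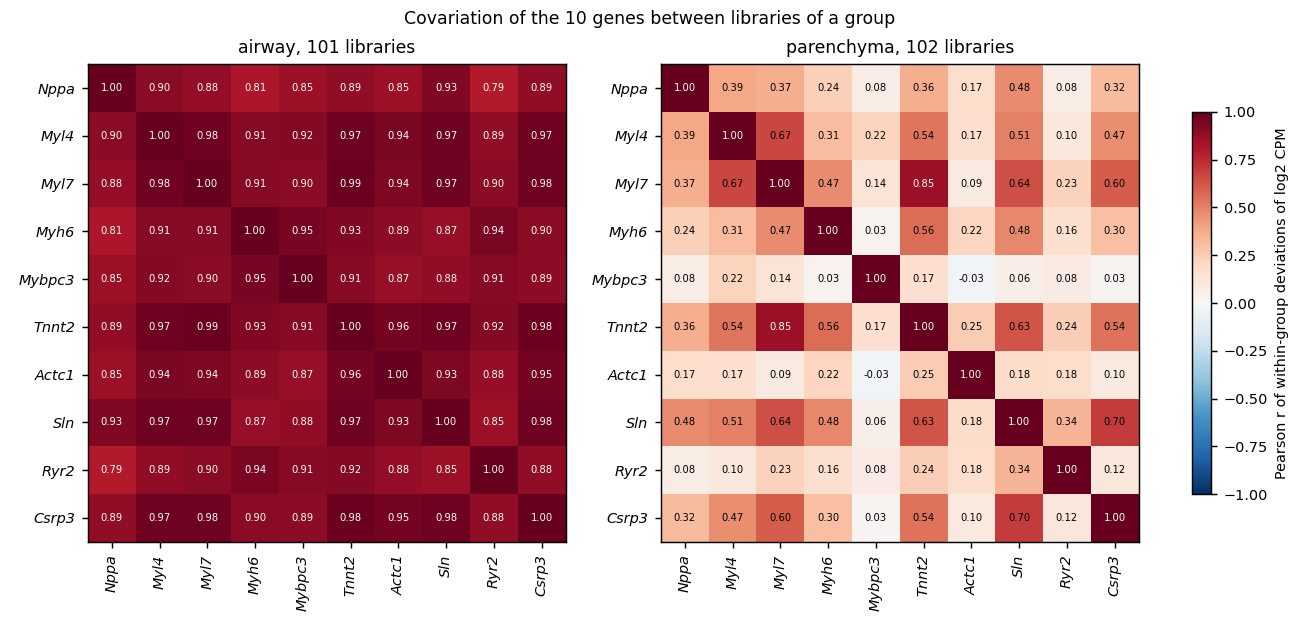
Pearson r of within-group deviations of log2 CPM for each pair of the 10 genes, in airway libraries and in parenchyma libraries. Nearly all airway pairs exceed 0.8, whereas in parenchyma only Myl7 with Tnnt2 does.

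The genes whose airway deviations were most like the mean of the 10 were genes of striated muscle. They were Tnni3, cardiac troponin I (r = 0.987), the oxygen store myoglobin Mb (0.985), Tnnc1, cardiac troponin C (0.984), Pln, phospholamban (0.983), Casq2, the cardiac calcium store protein (0.982), Pgam2 (0.978), the creatine kinases Ckm (0.976) and Ckmt2 (0.974), the channel gene Kcnj3 (0.975) and Smpx (0.975), over all airway libraries. In the parenchyma Pln led with 0.833, followed by Myoz2, Ckmt2, Smpx, Mb, Tcap, Casq2, Dhrs7c, Mybphl and Tnni3, the last at 0.602, over all libraries of that tissue.

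Other heart muscle genes moved with HDM as the 10 did. Of 58 further cardiac genes in lists written for this comparison, 54 were tested and 39 were called lower in 3-week airways, against 11.8% of genes. The median of the 54 was -1.83, and 1, the sodium-calcium exchanger gene Slc8a1, was called higher (1.73). By role these were 14 of 16 sarcomere genes, led by Tcap (-3.67), Myoz2 (-3.06) and Tnnc1 (-2.92), and 10 of 10 genes of energy metabolism, led by Mb (-3.17), Ckmt2 (-2.95) and Cox8b (-2.84). Channel and connexin genes gave 6 of 9, with Kcnj3 (-3.41), Kcna5 (-2.44) and Kcnj5 (-2.38). Calcium handling gave 5 of 10 and transcription factors 4 of 7. The few tested genes outside these roles added none to the 39 called lower.

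The transcription factors called lower included Shox2 (-2.98) and Isl1 (-1.84), which act in the sinoatrial and venous part of the heart, and Tbx20 (-2.72). At 11 weeks, averaged over settings, 42 of 58 were called lower, against 4.64% of genes, with a median of -1.54. In 3-week PBS mice 41 of the 54 were called higher in airways than in parenchyma, against 10.0% of genes. The lists were written with earlier results of these data known. A gene nearly absent from parenchyma could pass the count filter only through airway libraries. Both favoured a high share in advance, so the comparison with all genes is no independent test.

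Genes of other tissues of the dissected airway gave values beside these. At 3 weeks, where 11.8% of genes were called lower with HDM, 0 of 8 smooth muscle genes were. Of these, 4 had an adjusted p under 0.05, and the median of the 8 was -0.75. Called lower were 4 of 5 adipose genes (median -1.99), 3 of 5 club and ciliated cell genes, 3 of 5 endothelial genes and 1 of 4 cartilage genes. The leukocyte genes went the other way and rose. At 11 weeks 3 of 8 smooth muscle genes were called lower with a median of -0.94. Their deviations between airway libraries followed the mean of the 10 genes with r of 0.722 to 0.839, adipose genes with 0.567 to 0.731 and cartilage genes with 0.495 to 0.675, while Sftpc of the alveolar epithelium went the other way (-0.728), over all airway libraries.

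At 3 weeks and at 11 weeks in air, the cardiac genes fell further on average than the smooth muscle genes in the same libraries. Under the other 3 settings the difference was within the spread. The log2 ratio of the sum of the 10 genes to the sum of the 8 smooth muscle genes was 0.29 ± 0.44 in 3-week PBS airways (SD, n = 11) and -1.34 ± 0.67 with HDM (SD, n = 10), and these ranges, -0.33 to 1.17 and -2.49 to -0.41, did not overlap. At 11 weeks it was 0.46 ± 0.60 in PBS.AIR and -0.72 ± 0.75 in HDM.AIR (SD, n = 10 each), or -0.54 ± 0.52 without X109 (SD, n = 9). With all libraries the ranges, -0.71 to 1.44 in PBS.AIR and -2.32 to 0.42 in HDM.AIR, overlapped. The ratio itself was not tested. Under smoke the ratio was -0.34 ± 0.52 with PBS and -0.59 ± 0.79 with HDM (SD, n = 10 each). With dexamethasone it was 0.05 ± 0.62 and -0.47 ± 0.89 in air, and -0.16 ± 0.40 and -0.52 ± 0.54 under smoke (SD, n = 10 each). The part that unequal dissection of airway, vein and fat had in these values was not tested.

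**Figure D4:**
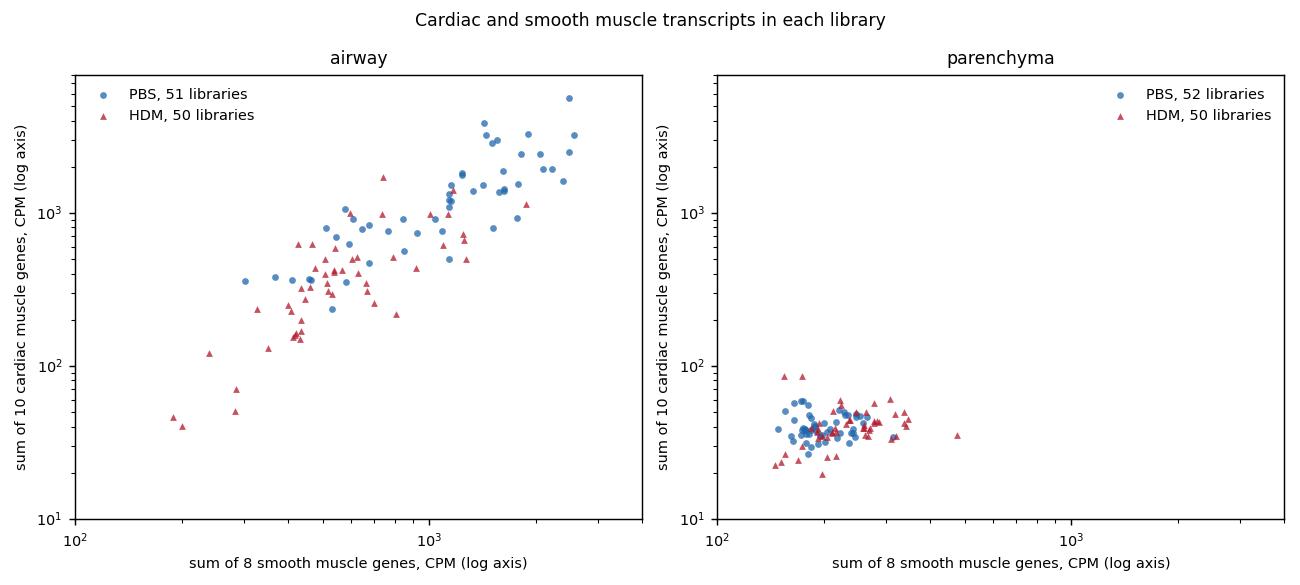
Sum of the 10 cardiac muscle genes against the sum of 8 smooth muscle genes in each library, in CPM on log axes, with HDM and PBS libraries in different colours and markers, for airways and parenchyma. In airways both sums rise together and HDM points lie lower, and no parenchyma library exceeds 85.9 CPM of the cardiac genes.

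Genes next to members on the chromosome were checked, since the strand of the reads is not given in the sources used here. Within groups, Mybpc3 and Spi1 had r of 0.02 between parenchyma libraries and -0.39 between airway libraries. These values leave out differences between groups, and both genes were higher with HDM in 3-week parenchyma. Mybpc3 was also low in parenchyma, with a median of 0.881 CPM, which limits r there. The part of Spi1 in the Mybpc3 counts was not tested. Myh6 and Myh7, 3757 bases apart, had r of 0.15 in airways and 0.75 in parenchyma. Myh6 in parenchyma, at a median of 19.0 CPM, therefore varied with Myh7, and in airways with the other members. Nppa overlaps the antisense gene Gm13054, which had a median of 0.129 CPM, and Myl4 lies 43 bases from Cdc27 on the other strand, which had 59.5 CPM.

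**Figure D5:**
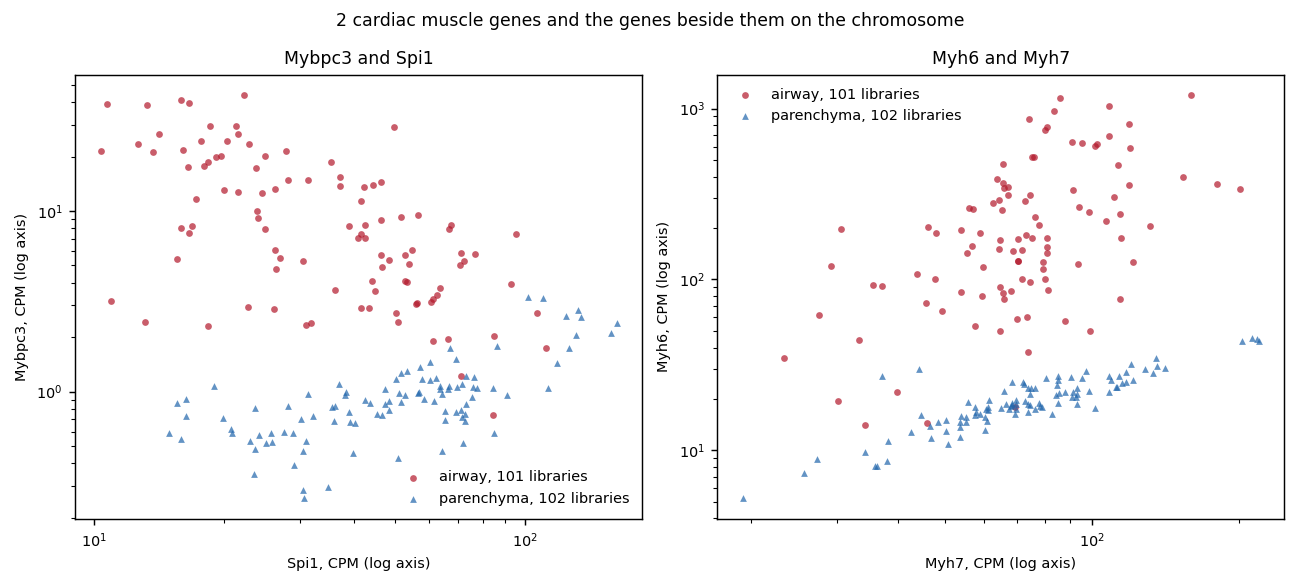
Mybpc3 against Spi1 and Myh6 against Myh7 in each library, in CPM on log axes, with airway and parenchyma libraries in different colours and markers. In parenchyma Myh6 rises with Myh7, whereas in airways Myh6 spans 14.1 to 1206 CPM and Myh7 the narrower range of 23.3 to 201.6 CPM.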

How the data were processed

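RNA from airway and parenchyma was sequenced in 203 mouse libraries. The authors deposited 1 table of counts per gene, labelled mm10, whose values are expected counts, 20.3% of the non-zero ones not whole. Per the labels, the tools were bcl2fastq 2.20.0.422, STAR 2.5.1b, RSEM 1.2.31 and kallisto 0.44.0, and which of them made the table is not given in the sources used here. Estimated counts of this kind share reads between similar genes. Of 43346 identifiers, 42462 matched GENCODE M21 without their version, which gave the symbols.

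Counts were rounded, and a gene was kept if at least 9 libraries held it at the CPM that 10 counts make up at median depth. They were scaled by TMM (edgeR 4.0.16) and tested with limma-voom (limma 3.58.1, R 4.3.3), with 1 mean per group, in separate fits for 3 and 11 weeks, and p-values were adjusted by Benjamini-Hochberg over all genes of a fit. Calls needed an adjusted p under 0.05 with a log2 fold change of 1 or more in size. Levels are CPM over all libraries, and log2 CPM used a prior count of 2. Total counts had a median of 28090684. The fits were checked on simulated data. Alternatives were the edgeR quasi-likelihood test, DESeq2 1.42.0, other scaling, filters, weights, covariates and libraries left out. The members and gene lists were chosen with earlier results of these data known. Named genes were the 10 members, up to 3 called genes of each list with the widest change, the genes needed to check the label, and the 10 genes most like the members in each tissue. No 1 animal could be tied to its libraries, so tissues were compared as unpaired.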

Additional observations from a re-analysis of the deposited data

Results flagged for a closer look

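In groups of 10 libraries, a lowest or highest library was marked where its gap to the next, as a share of the group's range of log2 CPM, passed Dixon's 95% limit. This marked 33 of the 180 combinations of gene and group, 17 in airways and 16 in parenchyma, where 1 in 20, or 9, would be marked by chance. Since the 10 genes vary together, these are not independent. The PBS.CS.DEX airway library X195 was far below its group for Nppa (0.506), Myl4 (0.566), Myl7 (0.491), Myh6 (0.561), Mybpc3 (0.630), Tnnt2 (0.549), Sln (0.479) and Ryr2 (0.676). X109, labelled airway HDM.AIR, was far below for Myl7 (0.524), Tnnt2 (0.470), Ryr2 (0.50) and Csrp3 (0.526), and the HDM.CS.DEX airway library X199 for Myl4 (0.469), Actc1 (0.501) and Csrp3 (0.484). The HDM.AIR.DEX airway library X131 was far above for Myh6 (0.471) and Actc1 (0.529).

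In parenchyma the HDM.AIR library X70 was far above its group for Sln (0.772) and Csrp3 (0.639), 2 genes that skeletal muscle also uses. X70 was also the only one of its group with any Nppa (a ratio of 1), but at 0.0425 CPM, which cannot be told apart from 0. Nppa was far above in X166 of PBS.AIR (0.520), X8 of PBS.AIR.DEX (0.564), X173 of PBS.CS (0.830), X132 of HDM.AIR.DEX (0.519) and X140 of HDM.CS.DEX (0.543), in groups that were mostly at 0. Myl4 was far above in X76 of PBS.CS.DEX (0.531) and X90 of HDM.AIR (0.487), Myh6 in X14 of PBS.CS (0.495), and Actc1 in X66 of PBS.AIR (0.474) and X48 of PBS.AIR.DEX (0.517). Mybpc3 was far below in X176 of PBS.CS.DEX (0.468), Ryr2 in X18 of HDM.CS (0.495) and Csrp3 in X68 of PBS.AIR.DEX (0.611).

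Effects of HDM that differed between groups by a test of the difference were marked too. Between tissues at 3 weeks this was Mybpc3 (-2.55 on the log2 scale, airway minus parenchyma). Between tissues at 11 weeks these were Actc1 (-2.49), Csrp3 (-2.15), Mybpc3 (-1.91), Myl4 (-1.86), Tnnt2 (-1.76), Ryr2 (-1.66), Myl7 (-1.47) and Myh6 (-1.24). Between smoke and air in airways these were Csrp3 (1.86), Myh6 (1.84), Myl7 (1.72), Sln (1.69), Tnnt2 (1.65), Actc1 (1.53), Myl4 (1.46) and Ryr2 (1.24), smoke minus air.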

How the results depend on the processing

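No paired analysis was possible because no label ties an airway library to a parenchyma library of the same mouse and library codes are not shared between groups. Of 10325 comparisons of a gene's value under an alternative, over all contrasts, 232 changed sign, 0 of them for a value that was called. Leaving out each library, the genes called lower with HDM at 3 weeks numbered 9 to 10, those higher in airways than parenchyma 10 to 10 with PBS and 8 to 8 with HDM, and the parenchyma HDM count 1 to 1. The difference between tissues gave 1 to 4, with more than 1 without X3, X41, X63, X201 or X203, and 0 without X23, X24, X183 and X184 together. Leaving out stretches of codes at 11 weeks gave 10 to 10 for HDM in airways and for the tissues, 0 to 0 for smoke and for dexamethasone in either tissue, 27 to 34 for single airway contrasts, 0 to 0 for single parenchyma contrasts and 0 to 1 for HDM in parenchyma. The parenchyma HDM count at 3 weeks was 0 with a CPM of at least 10 required in 9 libraries, and 2 with sample quality weights or with the code block as a covariate. The tissue difference at 3 weeks was called for 6 genes by edgeR, 8 by DESeq2, 4 with 3 and 11 weeks in 1 fit, 2 with quality weights or the code block, and 0 under the strict filter, which takes members below that level out of the test and also left 4 tissue calls with HDM. The Actc1 call at 11 weeks in parenchyma was lost, giving 0, with DESeq2 size factors, the strict filter, the code block, both times in 1 fit, or without X70 or X195, while edgeR and DESeq2 called 2 genes. Dexamethasone gave 3 airway calls with no fold limit, and in parenchyma 1 by edgeR and 2 by DESeq2. Single parenchyma contrasts gave 7 calls by edgeR, 11 by DESeq2, 2 with quality weights and 1 with the code block. The cause of these changes was not tested.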

Other observations

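At 3 weeks with HDM, the 2 lowest airway libraries and the 2 highest parenchyma libraries carry consecutive codes. The summed level of the 10 genes was 45.98 CPM in X183 and 50.4 CPM in X23, against 70.6 to 1136 CPM in the other 8 HDM airway libraries. It was 85.3 CPM in X184 and 85.9 CPM in X24, against 19.6 to 36.9 CPM in the other 8 HDM parenchyma libraries. Each of these parenchyma libraries thus held more of the transcripts than the airway library numbered before it. What the codes mark is not in the labels.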
